A study of Mus musculus with 12 samples.

Results

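The 7 genes described here encode cardiac sodium channel subunits (Scn4a and Scn4b), pacemaker channels (Hcn2 and Hcn4) and connexins (Gja1, Gja5 and Gjc1). They were taken by name from the 27179 genes of a count table of 12 mouse hearts, and all 7 had enough reads to be tested. The hearts formed 4 groups of 3: diesel exhaust (DE) with transverse aortic constriction (TAC), DE with sham surgery, filtered air (FA) with TAC, and FA with sham surgery. The exposure was that of the pregnant dam from E0.5 to E17.5 of gestation, and all offspring were then raised in filtered air. At 11 weeks the mice had echocardiography. Surgery followed at 12 weeks, with the aortic tie set by a 27-gauge needle, and hearts were frozen at 15 weeks. The sources used here name no strain, sex, litter or part of the heart, and hearts from a shared litter would not be independent for the exposure.

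Voltage-gated sodium channels open the cardiac action potential. A pore-forming alpha subunit carries the current, and beta subunits alter its gating and its place in the membrane. HCN channels open on hyperpolarisation and carry the pacemaker current, which is strongest in the sinus node. Connexins form gap junctions, through which current passes from cell to cell.

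Read totals ran from 5534685 to 13265816 counts per library, and mitochondrially encoded RNA took 18.3% to 32.4% of them. Ventricular cardiomyocyte markers had counts in all 12 libraries (10 of 10 genes). Of the 10 atrial markers 7 had counts in all 12 libraries, and Bmp10 had 0 in each. Of the 12 nodal and conduction markers 6 had counts in all 12, and Isl1 had 0 in each. Y-linked transcripts were present in all 12. Levels are given in CPM, each count divided by the size of its library after adjustment by the trimmed mean of M-values (TMM). A count of 3, taken as the floor per library, was 0.218 to 0.501 CPM, and this floor covers counting error only.

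Close relatives could share reads, so the longest runs of identical bases between coding sequences were looked up in the GENCODE M21 transcripts. The runs are printed because they show how alike the counted genes are. Capitals mark the shared bases and lower case the 12 bases on each side, 5′ to 3′ on the coding strand.
Hcn2: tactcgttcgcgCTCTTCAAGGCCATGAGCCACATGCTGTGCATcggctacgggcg
Hcn4: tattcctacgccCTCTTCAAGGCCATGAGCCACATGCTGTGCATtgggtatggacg
Gja1: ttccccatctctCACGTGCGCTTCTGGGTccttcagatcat
Gjc1: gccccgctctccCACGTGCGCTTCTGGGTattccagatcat
Gja1: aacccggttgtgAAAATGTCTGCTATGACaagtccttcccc
Gja5: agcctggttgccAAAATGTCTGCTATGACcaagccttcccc

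The HCN run was 32 bases long, at codon 391 of Hcn2 and codon 469 of Hcn4. Gja1 shared at most 17 bases with Gja5 and 17 with Gjc1. Against the transcripts of every other gene, Scn4b, Gja1 and Gjc1 had no shared run of 30 bases in their coding sequence. The longest run shared by the coding sequence was 33 bases for Hcn2 and 32 for Hcn4, both with Hcn3. For Gja5 it was 54, with a transcript annotated to Zfp697. For Scn4a the longest run shared with another gene was 54 bases. How multi-mapping reads were counted is not stated in the sources used here, so reads that lie within the longer runs are uncertain between these genes.

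Per length, Gja1 led, and Hcn4 and Gja5 were lowest. The level of Gja1 averaged 24.2 ± 6.77 CPM per kb of exon, of Scn4b 6.47 ± 2.35 and of Scn4a 4.78 ± 1.73 (SD, n = 12 each). The same level averaged 2.52 ± 0.833 CPM per kb for Hcn2, 2.18 ± 0.496 for Gjc1, 0.757 ± 0.262 for Hcn4 and 0.714 ± 0.287 for Gja5.

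Neighbours in this order were not all separated. Hcn4 exceeded Gja5 in 6 of 12 hearts, and Hcn2 exceeded Gjc1 in 8 of 12. Scn4b exceeded Scn4a per kb in 11 of 12 hearts, and Scn4a exceeded Hcn2 in 11 of 12. Gja1 exceeded Scn4b, and Gjc1 exceeded Hcn4, in 12 of 12.

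**Figure D1:**
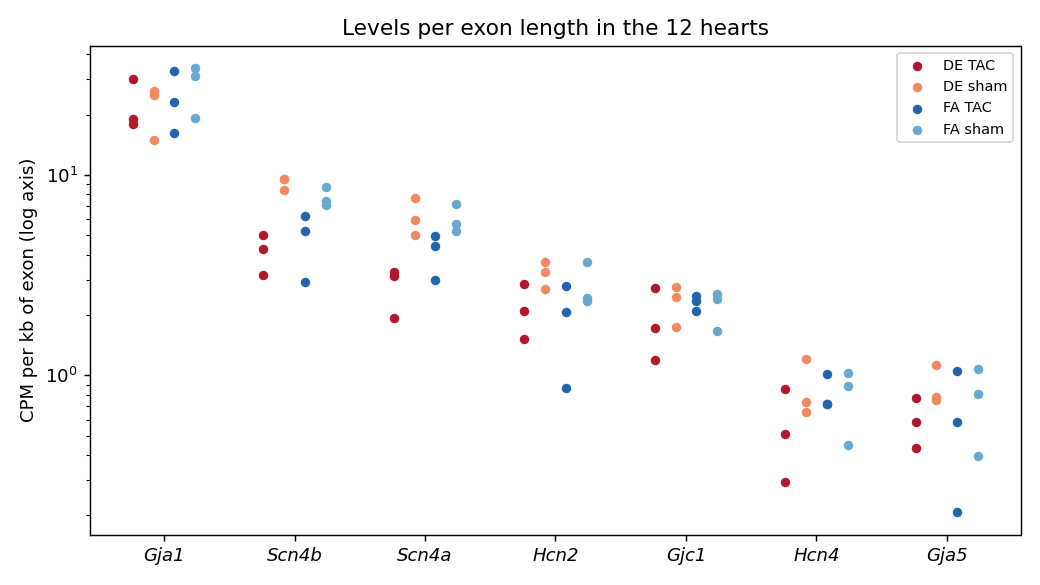
Level of each gene in CPM per kb of exon on a log axis, 1 point per heart, coloured by group, ordered by the mean over the 12 hearts. Gja1 lies above all other genes, with a mean of 24.2 CPM per kb, and Hcn4 and Gja5 overlap at the bottom.

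The question the design puts is whether pressure overload changes the heart's RNA, and whether it does so differently after in utero diesel exhaust. After diesel exhaust, 2 of the 7 genes were lower in TAC hearts than in sham hearts and none higher. In that comparison 3.24% of the 13626 genes tested passed an adjusted p of 0.05, 1.75% as higher and 1.49% as lower. The 2 genes were Scn4a and Scn4b, with levels in TAC hearts at 0.448 and 0.454 of the sham level (95% confidence interval for Scn4a, -1.65 to -0.67 on the log2 scale, and for Scn4b, -1.62 to -0.65). After filtered air none of the 7 passed, where 0.829% of all genes did (0.609% higher and 0.220% lower). With the exposures averaged, Scn4a and Scn4b were again the 2 that passed, both lower, in a comparison where 8.01% of all genes passed, 4.10% as higher and 3.91% as lower. The median log2 fold change of the 7 genes was -0.58 after diesel exhaust, -0.32 after filtered air and -0.44 averaged, against 0.00, 0.01 and 0.00 for all genes tested.

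Scn4a (gene number 110880, chr11:106317545-106365559, minus strand) encodes NaV1.4, the alpha subunit known best from skeletal muscle. Its level in TAC hearts was 23.1, 22.1 and 13.6 CPM after diesel exhaust. DE sham hearts had 53.9, 35.1 and 42.1 CPM. Every DE TAC heart was below every DE sham heart, and the highest TAC value was well under the lowest sham value. After filtered air, TAC hearts had 35.0, 21.1 and 31.1 CPM, against 50.3, 36.9 and 40.1 CPM in sham hearts. Here too no TAC heart reached a sham heart, although the nearest values, 35.0 and 36.9 CPM, lay close together.

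Scn4a fell after diesel exhaust, with a log2 fold change of -1.16 ± 0.24 (SE, 3 against 3 hearts; adjusted p = 0.00724, edgeR). Group means were 19.6 ± 5.19 CPM in DE TAC and 43.7 ± 9.48 CPM in DE sham hearts (SD, n = 3 each). After filtered air the log2 fold change was -0.55 ± 0.23, with adjusted p = 0.368 in edgeR, and means of 29.0 ± 7.20 CPM in TAC and 42.4 ± 7.01 CPM in sham hearts (SD, n = 3 each). Averaged over exposures Scn4a fell by 0.85 ± 0.17 on the log2 scale (adjusted p = 0.00221, edgeR), lower in 6 of 6 TAC hearts than in any sham heart.

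Scn4b (gene number 399548, chr9:45138624-45154155, plus strand) encodes a beta subunit that binds alpha subunits through an extracellular disulfide bond. Its level was 25.0, 21.3 and 15.8 CPM in DE TAC hearts. In DE sham hearts it was 42.0, 47.6 and 47.3 CPM. The groups stood apart, and the sham hearts were close to each other. After filtered air it was 31.2, 14.5 and 26.2 CPM in TAC hearts, against 43.5, 37.0 and 35.4 CPM in sham hearts. Again no TAC heart reached the sham range, and the second FA TAC heart was the lowest of all 12.

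Scn4b fell after diesel exhaust with a log2 fold change of -1.14 ± 0.23 (SE; adjusted p = 0.00769, edgeR). Its means were 20.7 ± 4.60 CPM in DE TAC and 45.7 ± 3.17 CPM in DE sham hearts (SD, n = 3 each). The filtered air value was -0.69 ± 0.23 (adjusted p = 0.219, edgeR), with means of 24.0 ± 8.55 CPM in TAC and 38.6 ± 4.30 CPM in sham hearts (SD, n = 3 each). Averaged over exposures Scn4b fell by 0.91 ± 0.17 (log2, SE; adjusted p = 0.00116, edgeR). Of all genes tested, 11.2% had every DE TAC heart below every DE sham heart, 7.57% had this after filtered air and 2.13% had all 6 TAC hearts below all 6 sham hearts.

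The calls after diesel exhaust rested in part on single hearts. DE TAC replicate 3 was the lowest DE TAC heart for both genes. Without it the adjusted p in edgeR was 0.0628 for Scn4a and 0.0668 for Scn4b. Without DE sham replicate 1 the adjusted p in edgeR was 0.0515 for Scn4a. Averaged over exposures, both genes passed whichever of the 12 libraries was left out.

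**Figure D2:**
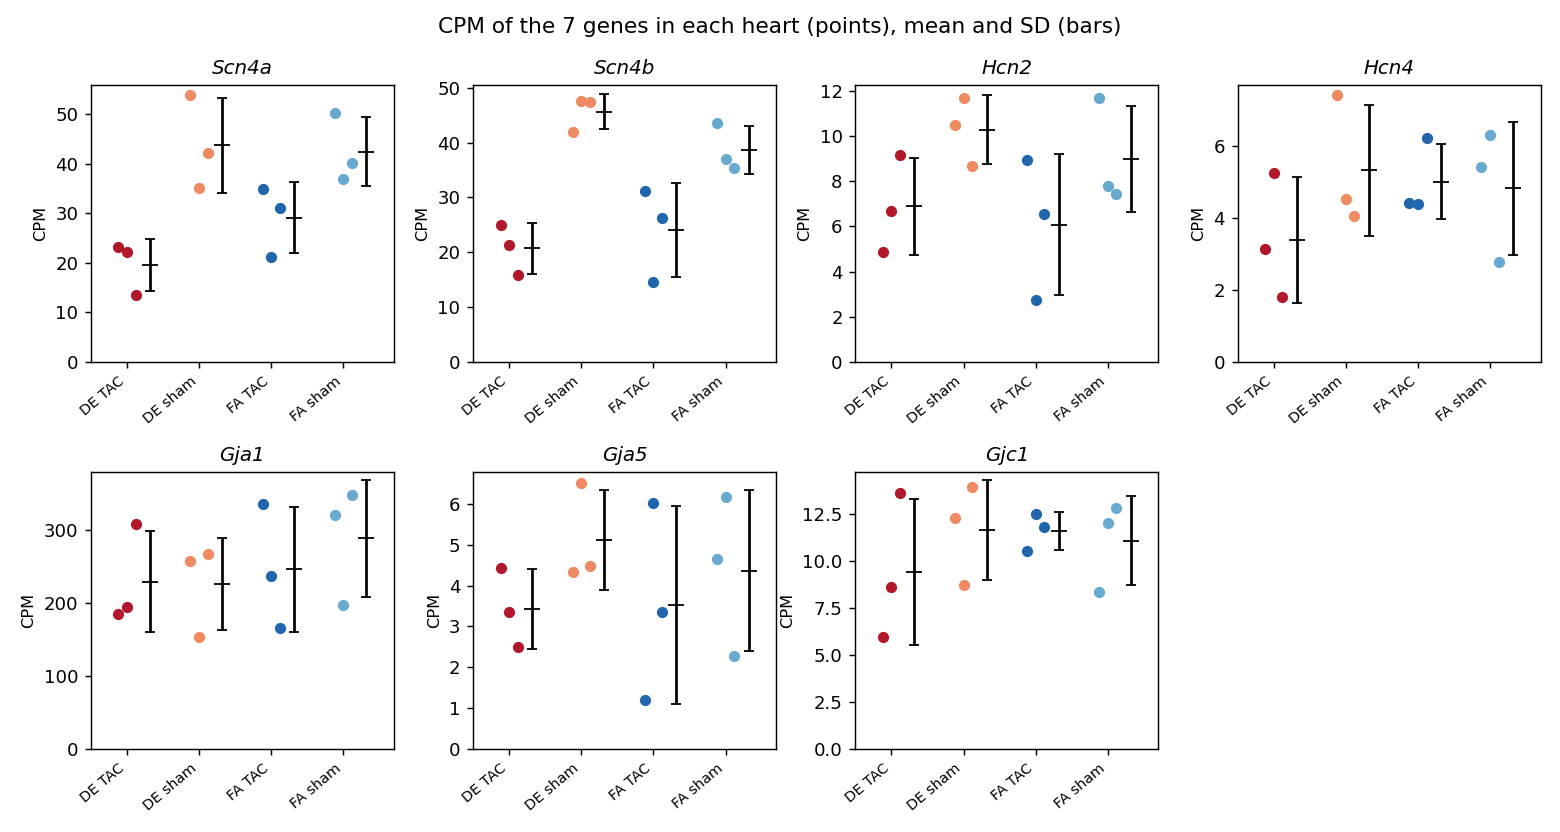
CPM of the 7 genes (vertical axes, each from 0) in the 4 groups, 1 point per heart, with the group mean and SD as bars. Scn4a and Scn4b have all TAC hearts below all sham hearts in both exposures, while the groups overlap for the other 5 genes.

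A ratio of counts within a library does not depend on how libraries are scaled. The Scn4a count was 92.4%, 104% and 86.2% of the Scn4b count in DE TAC hearts and 128%, 73.7% and 89.0% in DE sham hearts. It was 112%, 145% and 119% in FA TAC hearts and 116%, 99.6% and 113% in FA sham hearts. The surgery groups overlapped in both exposures. This ratio was added after seeing the data.

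Ventricular cardiomyocyte markers leaned lower in the TAC libraries, and few passed the test. After diesel exhaust 1 of 10 was called lower (median log2 fold change -0.40), after filtered air 0 of 10 (-0.36) and averaged 4 of 10 (-0.35), where 1.49%, 0.220% and 3.91% of all genes were called lower. The summed CPM of 10 ventricular markers ran from 44400 to 50100 in DE TAC hearts and from 65500 to 77500 in DE sham hearts. It ran from 41200 to 67600 in FA TAC hearts and from 59700 to 80600 in FA sham hearts. The groups stood apart after diesel exhaust and overlapped after filtered air. The summed CPM of 10 fibroblast markers was 3370 to 3940 in DE TAC hearts against 1590 to 2140 in DE sham hearts, and 2360 to 3800 in FA TAC hearts against 1700 to 1810 in FA sham hearts. In bulk tissue fewer cells of a type and less RNA per cell cannot be told apart.

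Set against the summed count of those ventricular markers, a scale added after seeing the data, Scn4a and Scn4b were lower in every TAC heart than in any sham heart of the same exposure. On it 1.07% of all genes had every DE TAC heart below every DE sham heart, and 1.28% had this after filtered air. This scale is computed like CPM, with the summed marker count as the library size. It raises the log2 difference of every gene by 0.56 after diesel exhaust and by 0.36 after filtered air. Myh6 took the most of the sum, with 15200 to 35900 CPM, and no other marker exceeded 10100 CPM. Averaged over exposures Myh6 was itself called lower (log2 fold change -0.65), as were Tnni3 (-0.74), Tnnt2 (-0.58) and Ryr2 (-0.57). The sum is therefore not a fixed measure of ventricular cells. Scn4a had 461, 452 and 307 units in DE TAC hearts, against 695, 516 and 643 in DE sham hearts. Scn4b had 498, 436 and 356 in DE TAC hearts, against 542, 701 and 722 in DE sham hearts. The differences on the log2 scale were -0.62 for Scn4a and -0.61 for Scn4b after diesel exhaust, and -0.20 and -0.39 after filtered air. Those of the other 5 genes, whose groups overlapped, ran from -0.18 for Hcn4 to 0.58 for Gja1 after diesel exhaust and from -0.33 for Hcn2 to 0.48 for Hcn4 after filtered air. How far the ventricular share contributes to the fall in CPM was not tested beyond these values.

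**Figure D3:**
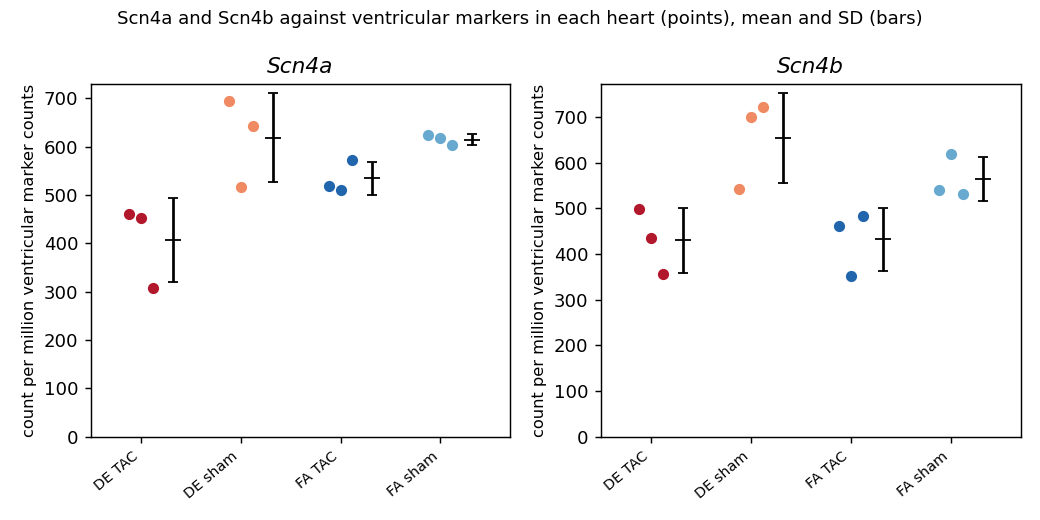
Scn4a and Scn4b counts scaled like CPM to the summed ventricular marker count of the same heart (vertical axes, from 0). Points are hearts and bars the mean and SD of 3. TAC hearts lie below the sham hearts of their exposure for both genes.

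Scn4a is also a gene of skeletal muscle, so 15 skeletal markers were followed. Of these 7 had counts in all 12 libraries, and Myod1 had 0 in each. They summed to 63.3 to 80.3 CPM in DE TAC hearts and 52.8 to 61.1 CPM in DE sham hearts, and to 63.5 to 89.5 CPM in FA TAC and 45.8 to 47.9 CPM in FA sham hearts. Mybpc2, a myosin-binding protein with 13.1 to 59.1 CPM, had the most counts of the list. Of the 6 markers tested, Mybpc2 was called higher in TAC hearts in both exposures and averaged (log2 fold change 1.56 ± 0.16 averaged, SE; adjusted p = 1.25e-06, edgeR). Cacna1s, a skeletal calcium channel subunit, was called lower after diesel exhaust (-1.56 ± 0.41; adjusted p = 0.0409, edgeR) and averaged. The median log2 fold change of the 6 was -0.55 after diesel exhaust, 0.16 after filtered air and -0.24 averaged, so the sum and the median differ in sign after diesel exhaust and averaged. Of all genes tested, 1.75% were called higher and 1.49% lower after diesel exhaust, and 4.10% and 3.91% averaged. After filtered air 0.609% were called higher. The part of skeletal muscle RNA in the Scn4a result was not tested.

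Hcn2 (gene number 15166, chr10:79716634-79736108, plus strand) encodes the HCN isoform usually found in ventricular muscle. Its level was 4.86, 6.69 and 9.15 CPM in DE TAC hearts and 10.5, 11.7 and 8.66 CPM in DE sham hearts. After filtered air TAC hearts had 8.93, 2.76 and 6.57 CPM, against 11.7, 7.78 and 7.46 CPM in FA sham hearts. TAC hearts tended to lie lower, but 1 TAC heart in each exposure was inside the sham range. The log2 fold change was -0.58 ± 0.36 after diesel exhaust, -0.57 ± 0.37 after filtered air and -0.57 ± 0.26 averaged (SE; adjusted p = 0.196 averaged, edgeR), which did not pass. On the scale of ventricular marker counts, the difference was -0.05 after diesel exhaust and -0.33 after filtered air.

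Hcn4 (gene number 330953, chr9:58822949-58863175, plus strand) encodes the main pacemaker channel of the sinus node. It had 17 to 58 counts per library. Its level was 3.12, 5.24 and 1.79 CPM in DE TAC hearts and 7.40, 4.51 and 4.04 CPM in DE sham hearts. In FA hearts it was 4.41, 4.39 and 6.21 CPM after TAC and 5.40, 6.31 and 2.76 CPM after sham surgery. The groups overlapped in both exposures. Averaged, the log2 fold change was -0.31 ± 0.30 with a 95% confidence interval of -0.94 to 0.32 (adjusted p = 0.622, edgeR), wide enough to hold a fall or a small rise.

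The Hcn4 count was 64.2%, 78.3% and 19.6% of the Hcn2 count in DE TAC hearts and 70.7%, 38.6% and 46.7% in DE sham hearts. It was 49.3%, 159% and 94.5% in FA TAC hearts and 45.9%, 81.1% and 37.0% in FA sham hearts. No surgery group stood apart in this ratio. Hcn3, another HCN gene, reached at most 0.587 CPM, with 16 counts in all. The 12 nodal and conduction markers summed to 99.7 to 130 CPM in DE TAC hearts and 79.3 to 94.1 CPM in DE sham hearts, and to 91.9 to 130 CPM in FA TAC and 70.5 to 105 CPM in FA sham hearts. Of the 7 tested, 0 were called in either exposure and 1, Smoc2, was called higher averaged (log2 fold change 0.60 ± 0.15, SE; adjusted p = 0.0161, edgeR). Smoc2 took 44.9 to 99.9 CPM, the most of the list. Averaged, 4.10% of all genes tested were called higher. The part of nodal RNA in the Hcn4 values was not tested.

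Gja1 (gene number 14609, chr10:56377300-56390419, plus strand) encodes Cx43, the main connexin of ventricular muscle. Its level was 185, 195 and 309 CPM in DE TAC hearts and 258, 153 and 267 CPM in DE sham hearts. In FA hearts it was 337, 237 and 166 CPM after TAC and 321, 197 and 349 CPM after sham surgery. The values varied by 2.29-fold over the 12 hearts without separating the groups. Its averaged log2 fold change was -0.10 ± 0.22 (SE; adjusted p = 0.849, edgeR), with a 95% confidence interval of -0.57 to 0.36.

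Gja5 (gene number 14613, chr3:97032402-97053634, plus strand) encodes Cx40, known from atrial muscle, the fast conduction system and arterial endothelium. Its exons overlap those of Gpr89, on the opposite strand, by 165 bases, and without a stated strand setting reads there are uncertain. The level was 4.43, 3.35 and 2.49 CPM in DE TAC hearts and 4.34, 6.52 and 4.47 CPM in DE sham hearts. FA TAC hearts had 1.19, 6.02 and 3.35 CPM, against 4.66, 6.17 and 2.27 CPM in FA sham hearts. It spread 5.47-fold over the 12 hearts, the widest of the 7, on 10 to 61 counts per library. The averaged log2 fold change was -0.44 ± 0.35 (adjusted p = 0.512, edgeR), with a 95% confidence interval of -1.16 to 0.28. Summed arterial endothelial markers were 193 to 223 CPM in DE TAC hearts and 194 to 198 CPM in DE sham hearts. They were 200 to 220 CPM in FA TAC and 203 to 214 CPM in FA sham hearts. Nebl took 66.5 to 119 CPM, the most of the list, and no other of the 10 exceeded 34.7 CPM. The sum therefore mostly follows Nebl and is not an even measure of the 10. Of these 10 markers 2, Unc5b and Fbln5, were called higher after diesel exhaust and averaged, and 0 after filtered air. Of all genes tested, 1.75% were called higher after diesel exhaust and 4.10% averaged. The atrial markers summed to 52.6 to 117 CPM in DE TAC and 48.5 to 76.2 CPM in DE sham hearts. In FA hearts they summed to 58.1 to 80.8 CPM after TAC and 33.6 to 81.8 CPM after sham surgery. Kcna5 (10.4 to 26.8 CPM) and Nr2f2 (8.36 to 24.0 CPM) had the most counts of this list. Of the 8 atrial markers tested 0 were called in either exposure, and 1, Dkk3, was called higher averaged (log2 fold change 1.76). Their median log2 fold change was 0.68 after diesel exhaust and 0.36 after filtered air. Single atrial markers varied widely over the 12 hearts. Myl7 ran from 0.147 to 11.5 CPM, Myl4 from 2.19 to 26.7 CPM and Sln from 0 to 8.20 CPM. The part of arterial endothelium or atrial muscle in Gja5 was not tested.

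Gjc1 (gene number 14615, chr11:102799477-102819686, minus strand) encodes Cx45, a low-conductance connexin of the nodes and the early heart. DE TAC hearts had 5.95, 8.59 and 13.6 CPM and DE sham hearts 12.3, 8.69 and 13.9 CPM. FA TAC hearts had 10.5, 12.5 and 11.8 CPM, against 8.36, 12.0 and 12.8 CPM in FA sham hearts. The groups overlapped in both exposures, and the averaged log2 fold change was -0.12 ± 0.21 (SE; adjusted p = 0.816, edgeR).

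Within libraries, the Gjc1 count was 3.21%, 4.40% and 4.40% of the Gja1 count in DE TAC hearts, against 4.75%, 5.69% and 5.18% in DE sham hearts. All DE TAC hearts were lower in this ratio, with a mean log2 difference of -0.39. Of single genes, 11.2% had every DE TAC heart below every DE sham heart, and the share over ratios was not computed. After filtered air the Gjc1 to Gja1 ratio was 3.11%, 5.28% and 7.11% in TAC hearts and 2.60%, 6.10% and 3.67% in sham hearts. There the groups overlapped, with a mean log2 difference of 0.33. The Gja5 count averaged 1.64% of the Gja1 count in DE TAC and 2.54% in DE sham hearts, and 1.63% in FA TAC and 1.74% in FA sham hearts, with overlap throughout.

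**Figure D4:**
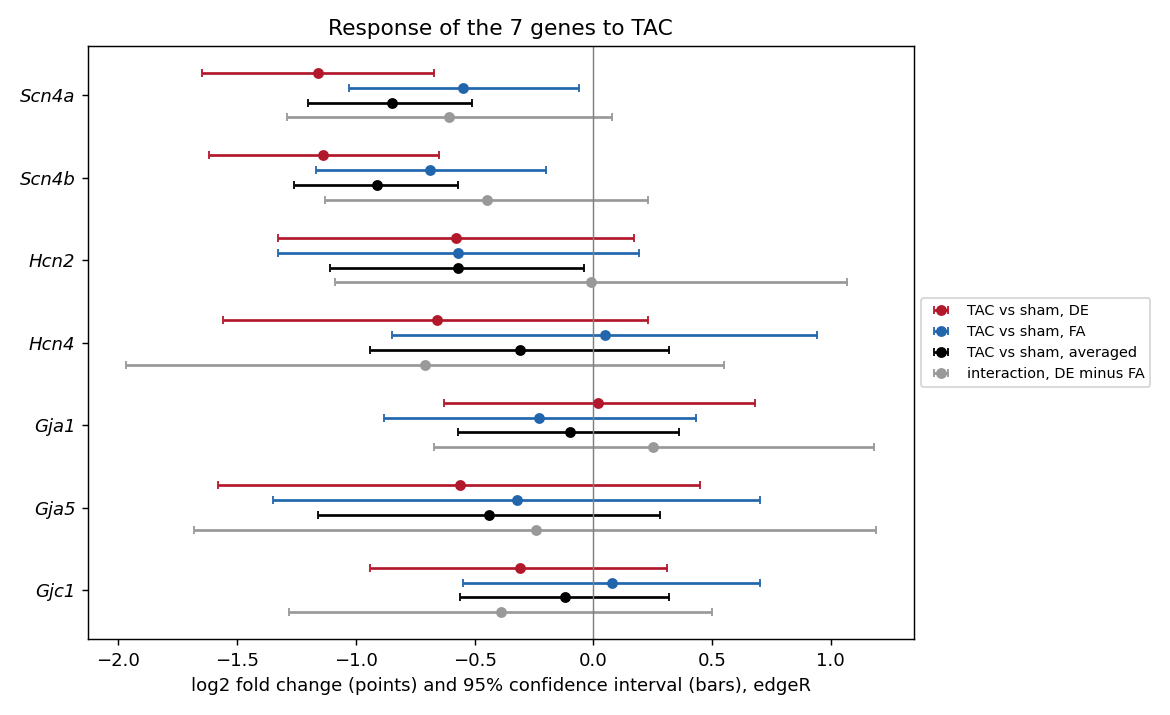
Log2 fold change of each of the 7 genes (points) with its 95% confidence interval (bars) for TAC against sham after diesel exhaust, after filtered air and averaged, and for the interaction (the DE response minus the FA response). The intervals of Scn4a and Scn4b lie below 0 in the 3 TAC comparisons, as does that of Hcn2 averaged, and every interaction interval includes 0.

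Whether diesel exhaust alters these responses was tested as an interaction, and none of the 7 passed, nor did any gene tested (0% called). The interaction was -0.61 ± 0.33 for Scn4a (SE; 95% confidence interval -1.29 to 0.08; unadjusted p = 0.0782 and adjusted p = 1.00, edgeR) and -0.45 ± 0.33 for Scn4b (-1.13 to 0.23). The larger fall after diesel exhaust than after filtered air was therefore not shown to differ between exposures. For the other 5 genes the interaction ran from -0.71 ± 0.61 for Hcn4 to 0.25 ± 0.43 for Gja1. At an unadjusted p under 0.05, 327 of the 13626 genes tested passed in edgeR. That is a smaller share than the 0.05 that such a threshold passes where nothing differs. At an adjusted p, 1 passed in DESeq2 and 0 in limma voom.

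Between exposures, none of the 7 genes differed in sham hearts or in TAC hearts, and 0% of all genes were called in either comparison by edgeR. In sham hearts the log2 fold change of diesel exhaust over filtered air was 0.04 ± 0.23 for Scn4a, 0.24 ± 0.23 for Scn4b and -0.36 ± 0.31 for Gja1 (SE). There 503 of the 13626 genes tested had an unadjusted p under 0.05, and DESeq2 and limma voom each called 0. In TAC hearts Scn4a had -0.57 ± 0.24 (unadjusted p = 0.0251, adjusted p = 1.00, edgeR), and its DE and FA hearts overlapped. There 255 of the 13626 genes tested had an unadjusted p under 0.05, while DESeq2 called 1 and limma voom 0. In sham and in TAC hearts alike, this share was below the 0.05 that such a threshold passes where nothing differs. These comparisons share their hearts with those of TAC against sham.

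Other genes of the same systems were followed in 6 lists. Of all genes tested, 4.10% were called higher and 3.91% lower averaged over exposures. After diesel exhaust these shares were 1.75% and 1.49%, and after filtered air 0.609% and 0.220%. In lists this short the counts of calls describe single genes, and no list was tested as a set. Among 13 further sodium channel genes, 8 were tested, and averaged over exposures 2 were higher in TAC hearts and 0 lower. Scn7a, an atypical sodium-sensing alpha subunit, averaged 53.5 ± 6.72 CPM in DE TAC and 35.8 ± 6.95 CPM in DE sham hearts, and 44.1 ± 5.96 CPM in FA TAC and 31.2 ± 6.99 CPM in FA sham hearts (SD, n = 3 each). It rose by 0.54 ± 0.14 on the log2 scale (SE; adjusted p = 0.0217, edgeR). In neither exposure alone did a gene of this list pass.

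In the pacemaker list 9 of 12 genes were tested, and 3 were lower and 0 higher averaged over exposures (3.91% and 4.10% of all genes). Kcnj5 and Kcnj3 encode the subunits of the acetylcholine-activated potassium channel of atrium and nodes. Kcnj5 fell by 0.72 ± 0.15 (log2, SE; adjusted p = 0.00311, edgeR), with 37.9, 26.0 and 27.0 CPM in DE TAC and 56.0, 43.8 and 58.4 CPM in DE sham hearts. It also passed after diesel exhaust alone (-0.80 ± 0.21; adjusted p = 0.0347, edgeR). Kcnj3 fell by 1.12 ± 0.28 (adjusted p = 0.0263, edgeR), and Cacna1c, the L-type calcium channel pore, fell by 0.45 ± 0.11 (adjusted p = 0.0177, edgeR).

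Only 3 of 20 further connexins and pannexins were tested. Panx1, a membrane channel that releases ATP, rose averaged over exposures by 1.88 ± 0.47 (log2, SE; adjusted p = 0.0158, edgeR) on 2 to 62 counts per library. It had 1.67, 5.36 and 6.17 CPM in DE TAC hearts and 0.255, 1.67 and 1.30 CPM in DE sham hearts. FA TAC hearts had 2.26, 5.26 and 2.75 CPM, against 0.423, 1.32 and 1.46 CPM in FA sham hearts. Gja3 had -1.06 ± 0.37 after diesel exhaust (adjusted p = 0.129, edgeR), and Gja4, the arterial Cx37, had 0.50 ± 0.25 averaged (adjusted p = 0.256, edgeR). Neither passed.

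Of 24 channel and junction partners 23 were tested, and averaged over exposures 2 were higher and 2 lower (4.10% and 3.91% of all genes). Xirp2, an actin-binding protein of the intercalated disc, averaged 4090 CPM in DE TAC and 1020 CPM in DE sham hearts, and 3330 CPM in FA TAC and 1040 CPM in FA sham hearts. It rose by 1.84 ± 0.16 on the log2 scale (adjusted p = 3.08e-07, edgeR), and it passed in each exposure. Sorbs2, an adaptor at the intercalated disc, rose by 0.53 ± 0.14 (adjusted p = 0.0228, edgeR). Fgf13, which binds the sodium channel tail, fell by 0.74 ± 0.18 (adjusted p = 0.0131, edgeR). Gpd1l, linked to sodium channel trafficking, fell by 0.49 ± 0.14 (adjusted p = 0.0343, edgeR).

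Of 24 genes in the list of conduction transcription factors 21 were tested, and 2 were lower averaged over exposures and 0 higher. In that comparison 3.91% of all genes were lower and 4.10% higher. Hopx, a homeodomain cofactor without DNA binding of its own, had 75.3, 74.6 and 53.0 CPM in DE TAC hearts and 172, 159 and 152 CPM in DE sham hearts. FA TAC hearts had 104, 70.2 and 106 CPM, against 157, 164 and 161 CPM in FA sham hearts. No TAC heart reached a sham heart, which held for 2.13% of all genes tested. Hopx fell by 1.02 ± 0.13 (log2, SE; adjusted p = 2.38e-05, edgeR) and passed in each exposure. Tbx5, a T-box factor needed for the conduction system, fell by 0.71 ± 0.20 averaged (adjusted p = 0.0319, edgeR). In the kinase list, 16 of 16 were tested and 1 was lower, Camk2a, a calcium/calmodulin-dependent kinase. It fell by 0.79 ± 0.14 averaged and by 0.97 ± 0.20 after diesel exhaust (log2, SE; adjusted p = 0.00122 and 0.00888, edgeR).

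**Figure D5:**
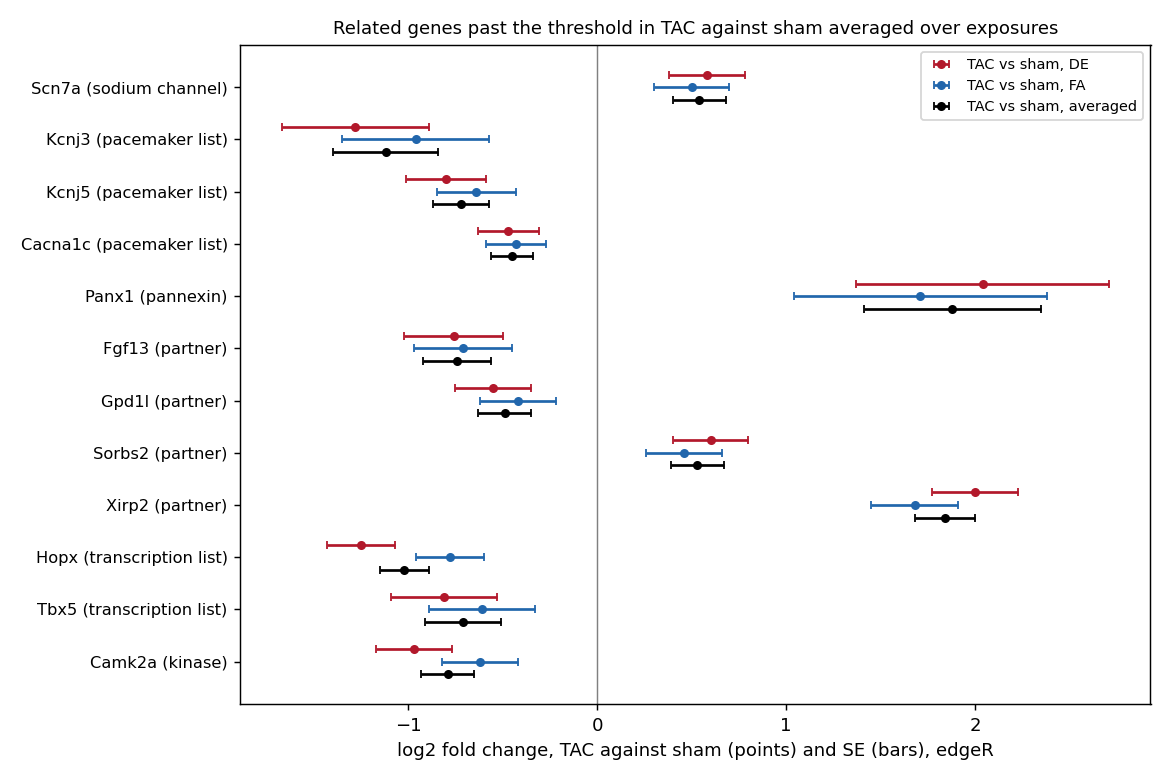
Log2 fold change of TAC against sham (points) with SE (bars) for listed genes that passed averaged over exposures, after diesel exhaust, after filtered air and averaged. Scn7a, Panx1, Sorbs2 and Xirp2 lie above 0, and the other 8 genes lie below 0, in all 3 comparisons.

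After filtered air, Xirp2 and Hopx were the listed genes that passed. Among those that did not pass were Kcnj5 (-0.64 ± 0.21; adjusted p = 0.175, edgeR) and Camk2a (-0.62 ± 0.20; adjusted p = 0.196). No listed gene passed between exposures or in the interaction. In sham hearts the smallest p in 4 of the lists belonged to Cacna1h (-1.04 ± 0.46), Gja3 (0.32 ± 0.36), Nkx2-5 (0.61 ± 0.30) and Camk2d (-0.37 ± 0.18), given as log2 fold change of diesel exhaust over filtered air with SE. In TAC hearts the smallest p of each list belonged to Scn7a (0.28 ± 0.20), Kcnj5 (-0.25 ± 0.21), Gja3 (-0.32 ± 0.37), Bves (-0.48 ± 0.18), Hopx (-0.46 ± 0.18) and Src (0.77 ± 0.42). For the interaction those of 5 lists belonged to Cacna1g (-0.60 ± 0.36), Gja3 (-0.65 ± 0.52), Bves (-0.36 ± 0.26), Hopx (-0.47 ± 0.25) and Prkce (-0.42 ± 0.29).

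The 7 genes did not move as 1 block. Likeness was measured as the root mean square difference of centred log2 CPM over the 12 libraries, where 0 is an identical pattern. Between Scn4a and Scn4b it was 0.26, and Scn4b ranked 39 of 9846 genes in likeness to Scn4a. The next smallest values were 0.41 for Gja1 and Gjc1 and 0.42 for Scn4b and Hcn2. Gjc1 ranked only 1950 in likeness to Gja1, and Gja1 3200 in likeness to Gjc1. Against a flat line Gja1 itself differed by 0.40 and Gjc1 by 0.34, so each was no nearer to the other than to a flat line. That does not tell whether the pair shares part of its pattern. Hcn2 ranked 745 in likeness to Scn4b, and Scn4b 708 in likeness to Hcn2. Gja1 and Gja5 were farthest apart at 0.92. The library and its scaling are shared by all genes, so these values are a description.

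Over all candidates, the genes nearest to Scn4a were Acaa2 (0.13), a mitochondrial fatty acid oxidation enzyme, and Rpl3l (0.18), a striated muscle ribosomal protein. Those nearest to Scn4b were Slc25a42 (0.17), a mitochondrial coenzyme A carrier, and Pcnt (0.17), a centrosomal scaffold. Hcn2 was nearest to Prrc2b (0.21). Hcn4 was nearest to Ndufaf3 (0.30) and Gpr17 (0.33). Gja1 was nearest to Wdr3 (0.21) and Naa35 (0.22), Gja5 to Endog (0.32) and Ppox (0.34), and Gjc1 to Tbl1x (0.17) and Clcc1 (0.18). The median likeness over all candidates was 0.61 for Scn4a, 0.62 for Scn4b, 0.50 for Gja1 and 0.46 for Gjc1.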

How the data were processed

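Frozen heart RNA was depleted of ribosomal RNA and sequenced on an Ion Torrent instrument, 4 samples per run, per the labels' protocols. The authors deposited raw counts, with genes named by Entrez number. Per the submitters' processing notes, cutadapt 1.6, Subread 1.4.2 and featureCounts were used with the mouse build mm10. The sources used here do not state the strand setting, the annotation version or each sample's run, so a run effect could not be fitted. Symbols came from a RefSeq GRCm38.p6 table (25275 genes) and GENCODE M21 (18 more). Another 1886 genes had no symbol and 4.19% of the counts. Gene positions are RefSeq's on GRCm38, and exon lengths are the union of GENCODE M21 exons.

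In R 4.3.3, edgeR 4.0.16 computed TMM factors, kept genes by filterByExpr with a count minimum of 10 (13626 genes) and fitted a robust quasi-likelihood model with 4 group means to all 12 libraries (8 residual degrees of freedom). P-values are two-sided and adjusted by Benjamini and Hochberg over all genes tested within a comparison, with a threshold of 0.05. The SE of a log2 fold change comes from the fold change and its F. The code was also run on simulated counts, with the same spread for every gene and changes in the DE TAC group alone. That setting is simpler than these data, so it checks the code and not the calls made here. Alternatives used DESeq2 1.42.0, limma 3.58.1 voom, other scaling and filters, and each library left out.

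Of the further genes, those named are the 7 members, the 2 genes nearest in pattern to each member (mean of at least 5 CPM, prior count 2), and from each list up to 4 genes past the threshold with the smallest p or, with none, those of smallest p. The members and lists were chosen with earlier results of these data known. Nothing in the labels says how animals were assigned, so p-values measure the spread between these samples, each taken as 1 heart. Replicate numbers follow the order of deposit. Some results of these rules are not reported here.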

Additional observations from a re-analysis of the deposited data

How the results depend on the processing

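No paired analysis was possible because the replicate numbers only follow the order of deposit and pair no samples. Scn4a and Scn4b passed after diesel exhaust under all 8 alternatives that kept every library, with log2 fold changes of -1.17 to -1.14 and -1.15 to -1.12, and averaged under all 7, with -0.87 to -0.84 and -0.95 to -0.90. Their adjusted p after diesel exhaust reached at most 0.0148. Per ventricular marker count, added after seeing the data, the differences were -0.62 for Scn4a and -0.61 for Scn4b after diesel exhaust and -0.20 for Scn4a after filtered air. Leaving out 1 library, the number of the 7 genes past the threshold ran from 0 to 2 after diesel exhaust.

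The number of all genes past the threshold after filtered air was 113, against 247 with no filter on low counts, 241 in DESeq2 and 74 in limma voom. With no filter and in DESeq2 it was 1 for diesel exhaust against filtered air in TAC hearts and 1 for the interaction. Leaving out 1 library, it ran from 39 to 143 after filtered air (39 without FA TAC replicate 2), from 188 to 530 after diesel exhaust (188 without DE TAC replicate 3) and from 631 to 1213 averaged (631 without FA TAC replicate 2).

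Estimates near 0 changed sign. The Hcn2 interaction was 0.01 with a scale set without mitochondrially encoded genes, 0.00 with a count minimum of 50 and 0.07 in limma voom. In limma voom the value for Gja5 was 0.25 between exposures in TAC hearts and 0.00 for the interaction. Leaving out 1 library turned the sign of 34 of 504 estimates of members, none of them past the threshold, and of 7 of 72 ratio differences.
Without 1 library, TAC against sham after filtered air ran from -0.22 to 0.28 for Hcn4, -0.95 to 0.09 for Gja5 and -0.10 to 0.19 for Gjc1. After diesel exhaust Gja1 ran from -0.25 to 0.16. Averaged, Gja1 ran from -0.25 to 0.01 and Gjc1 from -0.30 to 0.01.
Diesel exhaust against filtered air in sham hearts ran from -0.13 to 0.19 for Scn4a, -0.18 to 0.38 for Hcn4, -0.08 to 0.55 for Gja5 and -0.09 to 0.24 for Gjc1. In TAC hearts it ran from -0.47 to 0.03 for Scn4b, -0.17 to 0.56 for Hcn2, -0.38 to 0.19 for Gja1 and -0.44 to 0.60 for Gja5.
The interaction ran from -0.35 to 0.37 for Hcn2, -0.02 to 0.53 for Gja1 and -0.66 to 0.38 for Gja5.
The log2 ratio of Gja5 to Gja1 after filtered air ran from -0.81 to 0.66, of Hcn4 to Hcn2 after diesel exhaust from -0.51 to 0.50 and of Scn4a to Scn4b after diesel exhaust from -0.19 to 0.21. The cause was not tested.

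Depth was lowest for Hcn4 and Gja5, with at most 61 counts per library.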
